A study of Mus musculus with 6 samples.

Results

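The 32 genes described here build and control the contractile machinery of smooth muscle. They were taken from a list of named genes, and a gene's level is that of its brightest probe set, by mean over the 6 arrays, among those annotated to no other gene. All 32 had such a probe set, out of 18193 genes with one on the array, and together they had 68 probe sets. The study measured total RNA of whole mouse lungs, taken as embryos at E18.5, shortly before birth, on Affymetrix Mouse430_2 expression arrays. It asks which genes the transcription factor GATA6 regulates in the lung, and compares 3 arrays labelled wild type (WT 1 to WT 3) with 3 labelled GATA6 KO (KO 1 to KO 3). The labels describe the KO tissue as GATA6 null and give no allele, strain, Cre driver or deleted exons. They also do not say in which cells the gene was removed, or whether an array holds 1 embryo or a pool, so the errors below measure the spread between arrays, which may be partly technical.

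Smooth muscle of the fetal lung wraps the airways and the larger vessels. Its cells contract when calcium and calmodulin switch on myosin light chain kinase, which phosphorylates the regulatory light chain of smooth muscle myosin, and they relax when myosin phosphatase removes that phosphate. Myosin pulls on thin filaments of alpha and gamma smooth muscle actin, which are anchored in dense bodies and at adhesion plaques. Most of these genes share a transcriptional switch, serum response factor (Srf) with its cofactor myocardin (Myocd), which binds a short sequence called the CArG box.

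Levels are given as log2 of the deposited intensity plus 16, so that a probe set with no signal would read 4, and a difference is the mean of the KO-labelled arrays minus that of the WT-labelled ones on that scale. This scale understates differences of dim genes, and levels of different genes are not comparable, because each probe set has its own affinity. The median intensity per array lay between 20.5 and 23.9. Precision is limited by there being 3 arrays a label. In whole lung, fewer smooth muscle cells and less RNA per cell cannot be told apart.

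Gata6 itself read higher, not lower, under the KO label: its level was 11.12, 10.26 and 10.42 in WT 1, WT 2 and WT 3 and 11.58, 11.39 and 11.19 in KO 1, KO 2 and KO 3, a difference of 0.79 (SE 0.24, adjusted p = 0.964 in limma). Where its probe set lies relative to the deleted part is not known here, so the targeted gene does not check the labels, and each direction below holds between arrays as labelled. Arrays WT 1, KO 2 and KO 3 stood apart from the rest in another way. Among probe sets brighter than the median gene, the median level of those without a gene name minus that of the named ones was -0.23, -0.46 and -0.03 on these arrays, against -1.02, -0.94 and -0.96 on WT 2, WT 3 and KO 1. All arrays were hybridised on the same day. The fluidics station was number 1 for WT 1 and WT 2 and number 2 for the remaining arrays, and the WT-labelled arrays were scanned first, so scan order and label cannot be told apart.

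The contractile genes leaned low in the KO-labelled arrays, and no single gene passed the test. Of the 32 members 30 had a lower mean under the KO label, that is 93.8%, and Mylk and Itga8 a higher one. Across all genes tested 41.6% read lower, a share that was 31.8% with each array centred on its median and 51.6% after quantile normalisation, and among genes brighter than the median gene it was 55.0%. The median difference of the members was -0.22, against 0.003 over all genes and -0.03 over the brighter ones. By limma 0 of 32 members passed an adjusted p of 0.05, where 0.0055% of all genes did, and the members' adjusted p was 0.964 throughout, except 0.99 for Ppp1r12a. At an unadjusted p under 0.05, 3 members read lower (Myocd, Nexn and Cnn2) and 0 higher, which is 9.38% of them against 2.59% of all genes and 4.11% of the brighter ones. This count was 9 without KO 1, 5 with array weights, and 2 without WT 2 or without KO 3. It was 1 without WT 1, without KO 2 or with the replicate number as a block. No share over all genes was taken at these other settings, so these counts have no background beside them. Under none of the 22 alternative settings did a member pass, the lowest adjusted p being 0.48.

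In 6 members, 18.8% of the list, all 3 KO-labelled arrays lay below all 3 WT-labelled ones: Myocd, Cnn2, Nexn, Pdlim7, Csrp1 and Flna. The same held for 3.81% of all genes, and for 6.19% of the brighter ones, to which 5 of these 6 belong. No member had its KO-labelled arrays all above, which 5.89% of all genes did. The 3 KO-labelled arrays did not contribute alike. KO 2 lay below every WT-labelled array in 25 of the 32 members, KO 3 in 17 and KO 1 in 8, where over all genes the shares were 18.9%, 45.2% and 14.4%. The count of KO 3 is thus near its share over all genes. Among the members 25 are brighter than the median gene, and no share over the brighter genes was taken for these counts. KO 1 was above the mean of the WT-labelled arrays in 9 members and below it in 23. Averaged over the members after centring each gene, WT 1, WT 2 and WT 3 stood at 0.07, 0.04 and 0.29, and KO 1, KO 2 and KO 3 at 0.06, -0.30 and -0.15. By this average KO 1 lay within the range of the WT-labelled arrays, and KO 2 and KO 3 lay below that range. WT 3, the highest array in 16 members, stood above all others, so the difference rests on it as well. The members' median difference was -0.14 without KO 2, -0.11 without WT 3 and -0.33 without KO 1.

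**Figure D1:**
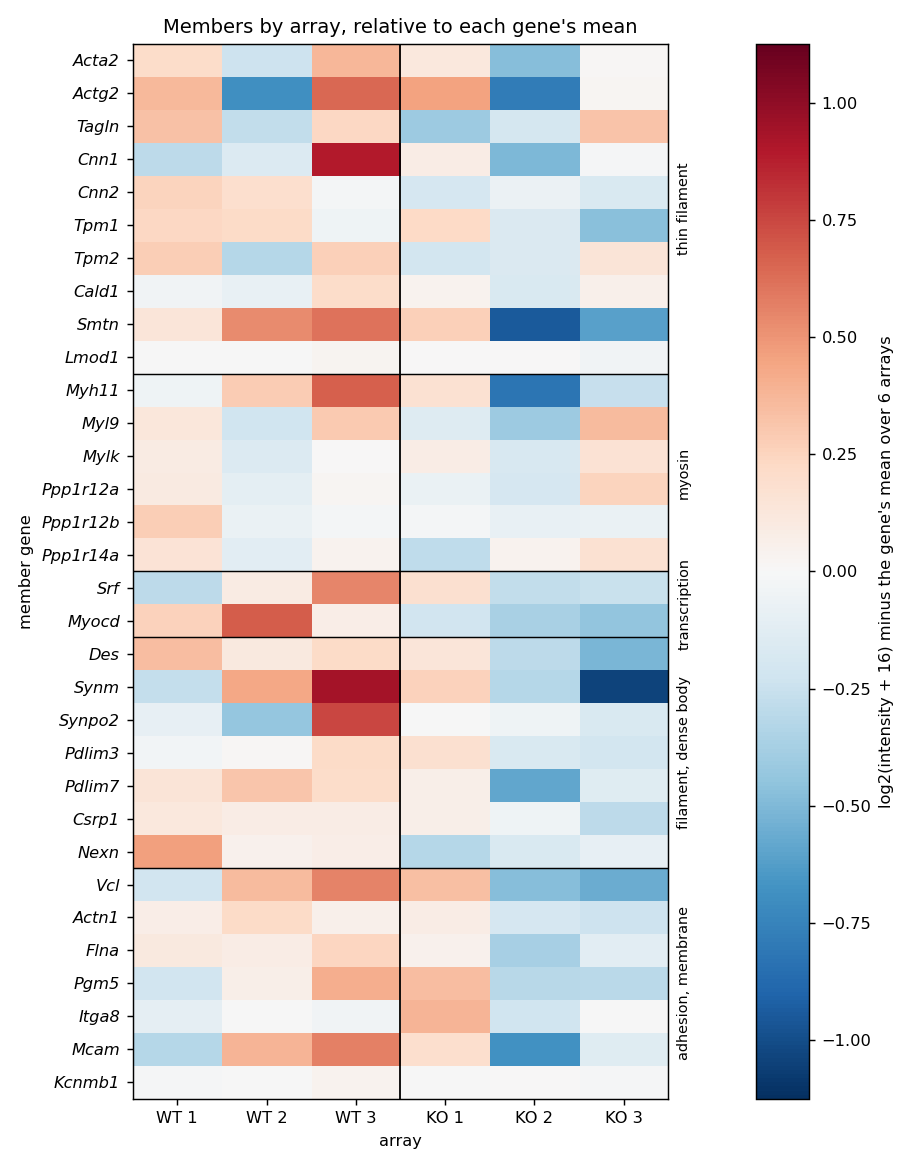
Heat map of the 32 members (rows, grouped by role) on the 6 arrays (columns); colour is the log2(intensity + 16) level minus the gene's mean over the 6 arrays, red above and blue below. The column of KO 2 is blue in nearly all rows and WT 3 is red in most, KO 1 resembles the WT-labelled columns, and Lmod1 and Kcnmb1 are near white because they read near the floor on every array.

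The list covers genes that smooth muscle shares with other cells, so its defining markers were looked at first. Myh11, the smooth muscle myosin heavy chain and the most specific marker of the list, read between 8.07 and 9.56 on the 6 arrays by its brighter probe set. Acta2, Tagln and Myl9, which smooth muscle also makes in large amounts, read above 10 on every array. Lmod1 and Kcnmb1 stayed under 5 on all 6 arrays. Smooth muscle RNA was thus measured on all 6 arrays, and for these 2 markers no difference could be seen at this signal.

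Both transcription factors of the list read lower, Myocd by more than Srf. Myocd, the cofactor that makes Srf drive contractile genes, read 6.10, 6.52 and 5.92 in WT 1, WT 2 and WT 3 and 5.63, 5.48 and 5.40 in KO 1, KO 2 and KO 3. The groups did not overlap: the highest KO-labelled array, KO 1, lay below the lowest WT-labelled one, WT 3. Under the WT label the mean was 6.18 ± 0.31 and under the KO label 5.51 ± 0.12 (SD, n = 3 each), which is a difference of -0.68 (SE 0.18) with a 95% interval from -1.13 to -0.22, or 37.5% lower as intensity plus 16. This is a dim gene, under the median gene in both groups, its adjusted p in limma was 0.964, and its other probe set read near the floor on all 6 arrays with a difference of 0.002. Among the members Myocd had the smallest p.

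Srf, the DNA-binding partner, read 8.01, 8.40 and 8.86 in the WT-labelled arrays 1 to 3 and 8.49, 8.04 and 8.06 in the KO-labelled ones. WT 1 was the lowest of the 6, so the groups overlapped, and the difference was -0.23 (SE 0.26, 95% interval -0.87 to 0.41). Its dimmer probe set differed by -0.05.

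The CArG box was searched in the promoters of the members to show which of them carry it close to the start of the gene. RefSeq promoters of build GRCm38.p6, from 250 bases before to 50 after a start site that need not be the outermost one of the gene, were at hand for 27 of the 32 members; Tagln, Myocd, Myh11, Actg2 and Nexn were not searched. A full box (CC, then 6 bases that are each A or T, then GG, a pattern that reads the same on both strands) stood in 4 of the 27: Srf itself, Cnn2, Vcl and Myl9. Over all genes with a promoter 1.81% held one. With 1 of the 6 inner bases allowed to be C or G, 7 of the 27 members and 11.3% of all genes held a box, which added Acta2, Synm and Pdlim3. The stretches before the start that hold these boxes in 5 genes named below are shown in the direction of the gene, with the boxes in capitals, because they include both the regulator and its best known target.

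Srf, chr17:46556185-46556274, minus strand: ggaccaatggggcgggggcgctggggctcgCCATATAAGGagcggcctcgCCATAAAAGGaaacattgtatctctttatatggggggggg
Cnn2, chr10:79988514-79988583, plus strand: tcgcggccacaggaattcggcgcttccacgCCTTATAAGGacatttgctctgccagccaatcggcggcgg
Vcl, chr14:20929148-20929210, plus strand: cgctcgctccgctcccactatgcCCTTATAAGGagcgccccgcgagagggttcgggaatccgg
Myl9, chr2:156775273-156775404, plus strand: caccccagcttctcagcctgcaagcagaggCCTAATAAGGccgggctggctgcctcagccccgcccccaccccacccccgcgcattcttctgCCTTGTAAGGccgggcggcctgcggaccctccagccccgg
Acta2, chr19:34255374-34255487, minus strand: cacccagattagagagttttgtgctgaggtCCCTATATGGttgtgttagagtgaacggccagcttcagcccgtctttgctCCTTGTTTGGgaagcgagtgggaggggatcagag

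Srf has 2 full boxes, whose first bases lie 82 and 62 bases before its start. Cnn2 and Vcl carry the same box letters, CCTTATAAGG, beginning 56 and 227 bases before their starts, and Myl9 has a full box at 161 and a box with 1 inner G at 99. Acta2 has 2 boxes with 1 inner C or G, beginning 84 and 34 bases before its start. The 4 genes with a full box differed by -0.23 (Srf), -0.28 (Cnn2), -0.47 (Vcl) and -0.13 (Myl9), within the range of the other members. The letters AGATAA, a common form of the site that GATA factors recognise, searched on both strands, were in 0 of the 27 member promoters and in those of 12.7% of all genes, which says only that these letters are not in this window.

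Genes of the thin filament all read lower by small amounts. In this group of 10, the median difference was -0.22, ranging from -0.85 to -0.02, and 1 gene, Cnn2, did not overlap between the labels. Acta2, alpha smooth muscle actin, read 12.67, 12.23 and 12.83 in WT 1 to WT 3 and 12.58, 11.98 and 12.47 in KO 1 to KO 3. WT 2 and KO 2 were the lowest of their labels and the groups overlapped, with a difference of -0.23 (SE 0.22, 95% interval -0.78 to 0.31). Actg2, gamma smooth muscle actin, ordered the arrays in much the same way with a wider spread, at 8.15, 7.09 and 8.43 against 8.24, 6.99 and 7.80. Its difference of -0.21 (SE 0.47) became -0.61 without WT 2 and 0.13 without KO 2. The probe set of Acta2 carries the suffix with which the maker marks probes shared between transcripts, and the 2 actins are close relatives, so how far their signals are separate is not known here.

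Tagln, or SM22, an actin-bundling protein, read 11.54, 10.93 and 11.45 in the WT-labelled arrays and 10.80, 11.01 and 11.53 in the KO-labelled ones. Here KO 3 was as high as WT 1, KO 1 was the lowest, and the difference of -0.19 (SE 0.25) was smaller than the spread within each label. Of the tropomyosins, which lie along the actin filament, Tpm1 differed by -0.27 (SE 0.19), with KO 3 the lowest array and KO 1 close to WT 1 and WT 2. A second bright probe set of Tpm1 differed by -0.07. Tpm2 differed by -0.15 (SE 0.20), and WT 2 was its lowest array. Cald1, caldesmon, which holds myosin off actin at rest, differed by -0.06 (SE 0.12), and 2 further bright probe sets of it by -0.31 and -0.35, while a dim one differed by 0.01.

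The calponins bind actin and restrain its movement on myosin. Cnn1, the smooth muscle calponin, was dim: 4.93, 5.08 and 6.12 in WT 1 to WT 3 against 5.31, 4.72 and 5.22 in KO 1 to KO 3, where WT 3 alone stood out. Its difference of -0.29 (SE 0.35) was 0.08 without WT 3 and -0.52 without WT 1. Cnn2, a relative found in many cell types, read 13.56, 13.49 and 13.28 against 13.12, 13.24 and 13.13. All 3 KO-labelled arrays lay below the lowest WT-labelled one, WT 3, though KO 2 only just, and the difference was -0.28 (SE 0.11), or 17.6% lower (adjusted p = 0.964 in limma).

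Smtn, smoothelin, a marker of contractile smooth muscle, showed the largest difference of the list, -0.85 (SE 0.35, 95% interval -1.71 to 0.01), or 44.6% lower. It read 7.78, 8.17 and 8.25 in the WT-labelled arrays and 7.91, 6.69 and 7.03 in the KO-labelled ones. KO 2 and KO 3 lay well below every WT-labelled array, while KO 1 lay above WT 1. The difference without KO 1 was -1.20, and with WT 1, KO 2 and KO 3 all left out it was -0.30. Lmod1, leiomodin, which seeds actin filaments, read between 4.86 and 4.93 on the 6 arrays.

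**Figure D2:**
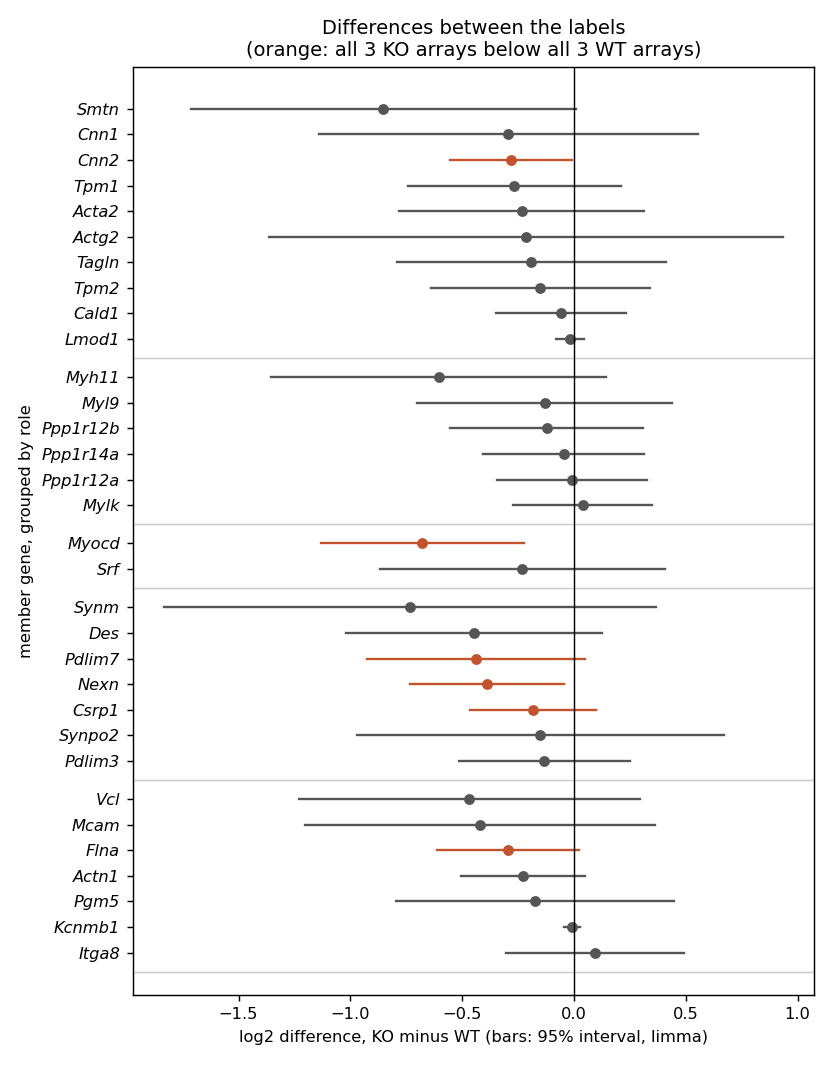
Difference of each member between the labels (x axis, KO minus WT in log2, point) with its 95% interval from limma (bar), grouped by role and sorted within a role; orange marks members whose 3 KO-labelled arrays all lie below the 3 WT-labelled ones. Points of 30 members lie left of 0, and most intervals cross it.

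Myosin and the enzymes that set its phosphorylation had the smallest median difference of the 5 groups by role. Among these 6 genes it was -0.08, 5 read lower, and none separated the labels. Myh11 was the exception in size: it read 8.85, 9.18 and 9.56 in WT 1 to WT 3 and 9.06, 8.07 and 8.64 in KO 1 to KO 3. KO 2 and KO 3 lay below every WT-labelled array but KO 1 was above WT 1, so that the difference of -0.61 (SE 0.31, 95% interval -1.35 to 0.14) did not separate the labels. Its second probe set read near the floor on all arrays.

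Myl9, the regulatory light chain that is phosphorylated, read 10.96, 10.62 and 11.13 against 10.69, 10.43 and 11.20, a difference of -0.13 (SE 0.23) in which the highest array of all was KO 3. Mylk, the kinase that phosphorylates it, read 12.60, 12.35 and 12.50 in the WT-labelled arrays and 12.58, 12.32 and 12.66 in the KO-labelled ones. That is a difference of 0.04 (SE 0.13) with a 95% interval from -0.27 to 0.35, and 2 further probe sets of Mylk differed by -0.03 and -0.22. The phosphatase side was similar, with differences of -0.01 (SE 0.14) for Ppp1r12a, which targets the phosphatase to myosin, -0.12 (SE 0.18) for its dim relative Ppp1r12b, and -0.05 (SE 0.15) for Ppp1r14a, the inhibitor of the phosphatase. Other probe sets of Ppp1r12a with clear signal differed by -0.27, 0.075 and -0.12. The second brightest probe set of Ppp1r12b differed by 0.35, so the direction of this gene depends on the probe set. The intervals of these 3 genes, by the probe set used, reached from -0.55 to 0.33 at the widest, so changes of up to that size could not be seen here.

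Intermediate filament and dense body genes held 3 of the 6 members that separated the labels. All 7 read lower, with a median of -0.39. Nexn, nexilin, an actin-binding protein of muscle Z-lines and dense bodies, read 11.08, 10.66 and 10.69 in WT 1 to WT 3 and 10.30, 10.44 and 10.52 in KO 1 to KO 3, a difference of -0.39 (SE 0.14, 95% interval -0.73 to -0.04). Here KO 1 was the lowest array, as it was in 4 members in all, against 15 in which KO 2 was. Pdlim7, a PDZ and LIM scaffold, read 8.40, 8.57 and 8.46 against 8.32, 7.67 and 8.12, with a difference of -0.44 (SE 0.20), and its 2 dimmer probe sets differed by -0.15 and -0.02. KO 1 was only just below WT 1, and KO 2 much further.

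Csrp1, a LIM protein of smooth muscle, varied little: 12.89, 12.86 and 12.86 against 12.84, 12.73 and 12.48. The labels were separate by a hair, and the difference of -0.18 (SE 0.11) came mostly from KO 3. A second bright probe set differed by -0.21. Des, desmin, the intermediate filament protein of muscle, read 7.22, 6.98 and 7.08 against 7.01, 6.58 and 6.35, a difference of -0.45 (SE 0.23) with KO 1 inside the range of the WT-labelled arrays. Synm, synemin, which joins desmin filaments to adhesion plaques, read 7.03, 7.73 and 8.23 against 7.55, 6.98 and 6.26. Its difference of -0.73 (SE 0.45) was the second largest in the list, the arrays scattered widely within both labels (SD 0.60 and 0.65), and its other probe set differed by -0.47. Synpo2, an actin-bundling protein, and Pdlim3, an actinin-binding one, differed by -0.15 (SE 0.33) and -0.13 (SE 0.16).

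**Figure D3:**
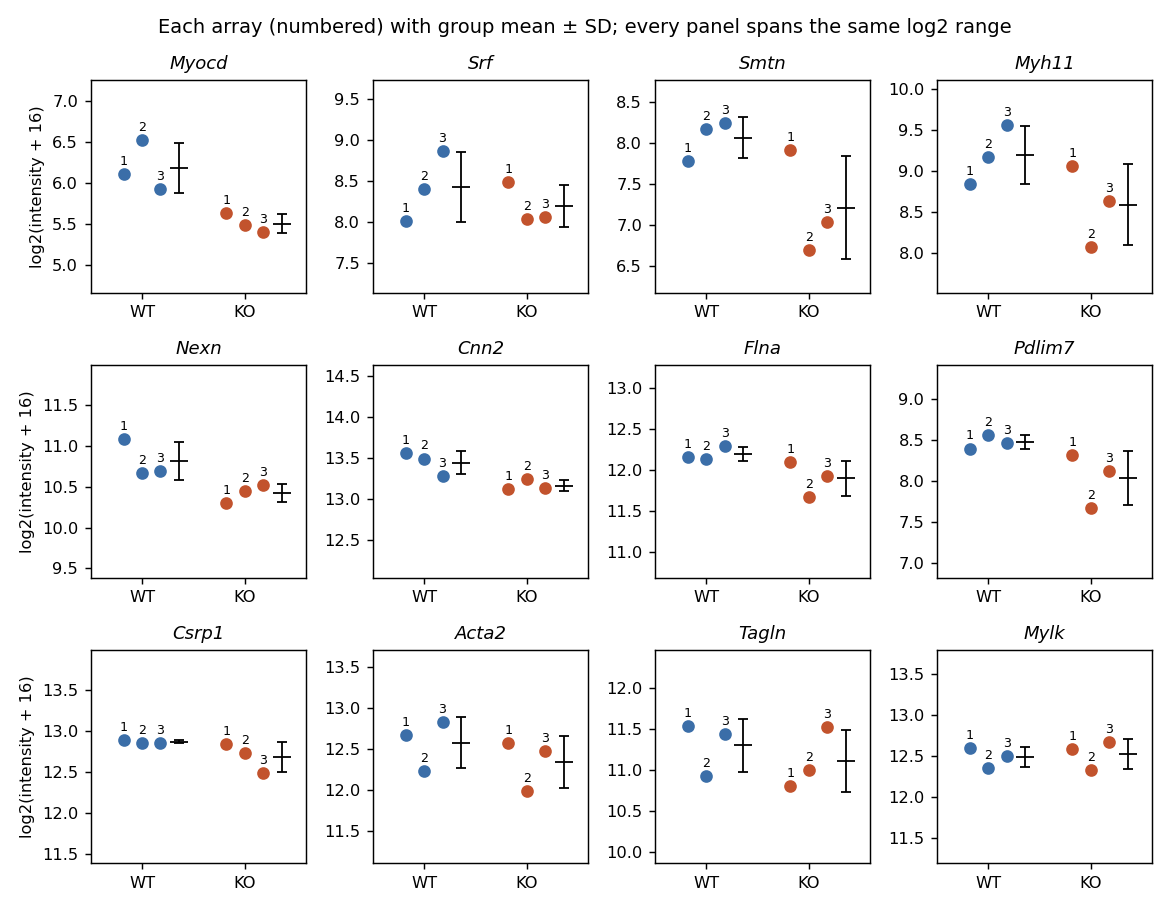
Level of 12 members (panels; y axis, log2(intensity + 16), each spanning the same range) on every array, numbered as in the labels, with the group mean and SD (n = 3 each) beside the points. In Myocd, Nexn, Cnn2, Flna, Pdlim7 and Csrp1 the KO-labelled points lie wholly below the WT-labelled ones; in Srf, Smtn, Myh11, Acta2, Tagln and Mylk they overlap.

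Among adhesion, crosslinking and membrane genes 6 of 7 read lower, with a median of -0.23. Flna, filamin A, which crosslinks actin in nearly all cells, read 12.16, 12.13 and 12.29 in WT 1 to WT 3 and 12.10, 11.68 and 11.92 in KO 1 to KO 3. Its labels did not overlap, though KO 1 came close to WT 2, and the difference was -0.30 (SE 0.13). Actn1, the actin crosslinker of adhesion plaques, differed by -0.23 (SE 0.11), and its 2 dimmer probe sets by -0.61 and -0.68. Vcl, vinculin, which couples integrins to actin, differed by -0.47 (SE 0.31), Pgm5, a vinculin-associated protein of muscle, by -0.17 (SE 0.25), and Mcam, an adhesion molecule of smooth muscle and also of endothelium, by -0.42 (SE 0.32).

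Itga8, the integrin chain of airway smooth muscle and lung mesenchyme, went the other way. It read 11.40, 11.49 and 11.46 in the WT-labelled arrays and 11.87, 11.27 and 11.49 in the KO-labelled ones. KO 1 alone was high, the difference was 0.09 (SE 0.16), and the dimmer probe set differed by -0.11. Kcnmb1, the beta subunit of the large potassium channel that relaxes smooth muscle, read between 4.38 and 4.43 on all 6 arrays.

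Some members followed the arrays that stood apart in their unnamed probe sets, about as often as other genes of their brightness. In 8 of the 32 members, WT 1, KO 2 and KO 3 were the 3 lowest of the 6 arrays: Smtn, Myh11, Srf, Synm, Pdlim3, Vcl, Pgm5 and Mcam. The same held for 17.5% of all genes and 26.6% of the brighter ones, so this count is near the background. Vcl is the clearest case, with 11.62, 11.35 and 11.27 on these 3 arrays against 12.18, 12.39 and 12.17 on WT 2, WT 3 and KO 1. With the unnamed-to-named signal of each array as a covariate, the median difference of the members was -0.20. In that fit 30 of 32 members and 36.1% of all genes read lower. With WT 1, KO 2 and KO 3 left out, which leaves WT 2 and WT 3 against KO 1, the median was -0.12. There 24 members and 35.7% of all genes read lower. Whether the members' lean has the same source as the unnamed signal was not tested.

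Probe sets of the same gene mostly gave the same direction. Of the 68 probe sets of the members 53 were not near the floor, meaning that at least 1 array read 5 or more, and 47 of these read lower under the KO label. Among the 14 members with more than 1 such probe set, all of them read lower in 8, while Cald1, Itga8, Mylk, Ppp1r12a, Ppp1r12b and Synpo2 had probe sets of both signs.

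Further genes of the smooth muscle programme were read from 4 lists, none of whose members passed over all genes. Of 28 regulators of smooth muscle transcription 23 read lower (median -0.14), and 7 had all KO-labelled arrays below the WT-labelled ones and 0 all above, where over all genes the shares were 3.81% and 5.89%, and 6.19% of the brighter genes lay below. Mrtfa, the widely expressed relative of myocardin, read 8.69, 8.80 and 8.75 in WT 1 to WT 3 and 8.57, 7.77 and 7.73 in KO 1 to KO 3 (difference -0.73, SE 0.25), while its sister Mrtfb differed by 0.12 (SE 0.13). Foxf1, a forkhead factor of lung mesenchyme and vessels, read 10.14, 10.87 and 10.67 against 10.03, 9.87 and 9.60 (difference -0.73, SE 0.22). Other regulators whose labels did not overlap were the Hippo pathway factors Tead1 (-0.42, SE 0.10), Tead4 (-0.90, SE 0.18) and Wwtr1 (-0.37, SE 0.12), together with Elk1 (-0.36, SE 0.12), a partner of Srf that competes with myocardin, and the growth factor Tgfb1 (-0.76, SE 0.29). Tead4 and Elk1 are dim.

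Of 25 measured genes of calcium handling, RhoA kinase and contractile receptors 17 read lower (median -0.11), 1 lay below without overlap (Ednrb) and 2 above, counts near the all-gene shares of 3.81% and 5.89%. Cacna1c, the calcium channel that lets the signal in, and its partner Cacnb2 differed by -0.52 (SE 0.24) and -0.27 (SE 0.28). Ednrb, an endothelin receptor, differed by -0.18 (SE 0.12), and the 2 that read higher without overlap were the kinase Rock1 (0.31, SE 0.12) and the calcium release channel Ryr3 (0.88, SE 0.38). Of 32 other adhesion and filament genes of muscle 21 read lower (median -0.10), 4 below without overlap and 2 above, beside the same all-gene shares of 3.81% and 5.89%. The 4 below were Filip1l, Sorbs3, Itga9 and Ablim1, with differences of -0.48, -0.43, -0.37 and -0.29, and the 2 above were Itga7 and Fhl1. Tln1, talin, and Zyx, zyxin, partners of vinculin, differed by -0.58 (SE 0.25) and -0.51 (SE 0.22) and overlapped between the labels. Itga7, the laminin-binding integrin of muscle, differed by 0.89 (SE 0.24). Among 14 mostly non-muscle relatives of the members, such as the cytoplasmic actins, 13 read lower with a median of -0.13. Of the members 30 of 32 did, so this lean was not particular to the contractile genes. Over all genes 41.6% read lower, and 55.0% of the brighter ones. Actb and Actg1 differed by -0.18 (SE 0.16) and -0.08 (SE 0.12), and Tpm3, the widely expressed tropomyosin, by -0.52 (SE 0.18).

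Markers of other cell types did not all move with the contractile genes. Over all genes 41.6% read lower, 3.81% lay below without overlap and 5.89% above. Of the brighter genes 55.0% read lower and 6.19% lay below without overlap. All 11 endothelial markers read lower (median -0.62, 2 without overlap, summed intensity 12119 to 18490 in the WT-labelled and 10871 to 12413 in the KO-labelled arrays). Averaged after centring they stood at -0.38 and -0.40 in KO 2 and KO 3, at 0.02 in KO 1 and at -0.14 in WT 1, the same 3 arrays being low as for the 8 members above. Of 10 myofibroblast markers 7 read lower (median -0.24, 2 below without overlap, summed 27152 to 30496 against 22312 to 26849). Pericyte markers, from the contractile cells of capillaries, read lower in 4 of 10, near the share over all genes (median 0.17, 2 above without overlap, summed 6722 to 8667 against 7137 to 11517). The fibroblast markers were mixed, with 4 of 10 lower (median 0.06, summed 64409 to 72208 against 59197 to 81869), and among them Dcn and Lum, both proteoglycans of connective tissue, read higher by 1.10 (SE 0.20) and 1.47 (SE 0.31) without overlap.

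Heart and skeletal muscle markers, which include actins and myosins related to the members, read lower in 7 of 22 (median 0.07, summed 5265 to 7873 against 4701 to 9833). Their RNA could enter with heart or chest wall, among other sources, and its source was not tested. Of these markers Acta1, Nppa, Myoz2, Tnnt3, Tnni2 and Mb were near the floor on all arrays, while Actc1, cardiac actin, read between 10.25 and 11.49. Epithelial markers read lower in 4 of 11 (median 0.05, summed 38700 to 40689 against 36874 to 45401), mesothelial ones in 5 of 8 (median -0.20, summed 16393 to 22422 against 12921 to 27254) and blood markers in 5 of 6 (median -0.17, summed 13112 to 31018 against 7322 to 34474, with Hba-a1 near the floor). The summed intensity of the 32 contractile genes themselves was 67904 to 74307 and 57777 to 67692. The part of any of these cell types in the members' levels was not tested.

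**Figure D4:**
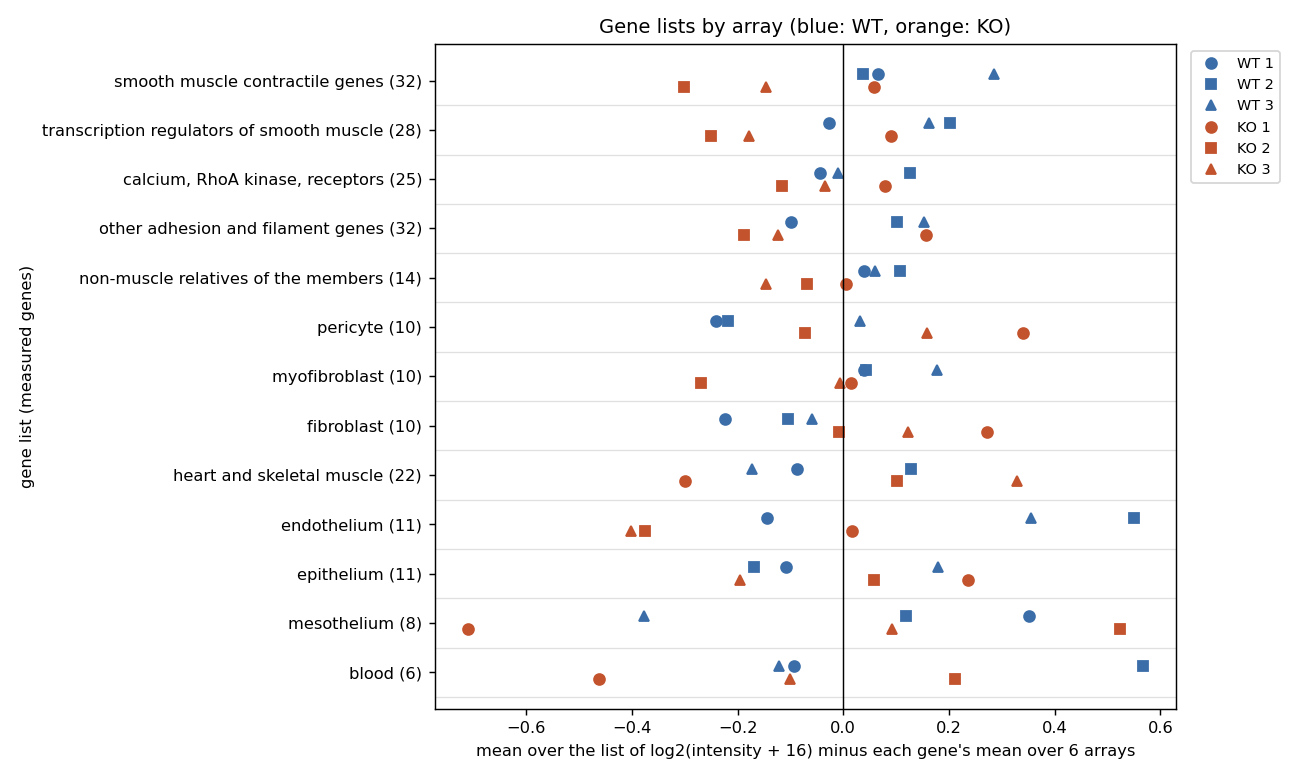
Mean level of each gene list on every array (x axis, log2(intensity + 16) after subtracting each gene's mean over the 6 arrays; number of measured genes in brackets), with arrays as symbols, blue for the WT and orange for the KO label. For the contractile genes KO 2 and KO 3 lie lowest and KO 1 lies between WT 1 and WT 2; the endothelial markers spread more widely and the pericyte markers lie higher in the KO-labelled arrays on average.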

How the data were processed

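The authors deposited 1 table of intensity values on a linear scale, for 45101 probe sets on 6 arrays. GCRMA and MAS5 appear in the submitters' processing notes, with no version, role or order. How the authors scaled the arrays is not given in the sources used here. The instrument files, which hold other, non-expression settings, were deposited per array and read for chip, station and scan order. After leaving out 64 controls, 34945 probe sets named 1 gene (932 named several, 9160 none here), 34741 of them through a gene ID of RefSeq GRCm38.p6. Intensities plus 16 were taken to log2 with no further scaling or filter. The contrast was fitted with limma 3.58.1 in R 4.3.3 (lmFit, eBayes with trend, two-sided) over all 18193 genes, with Benjamini-Hochberg adjustment and a threshold of 0.05, and the script was checked on simulated data. Per-array values were printed for core contractile genes, members without overlap and the largest differences; of cell type lists mainly counts are given, and the few further genes named there were chosen after their values were seen. Members and lists were chosen with earlier results of these data known. Same-numbered arrays were not taken as pairs, since their residuals correlated at -0.613, 0.0971 and -0.311.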

Additional observations from a re-analysis of the deposited data

How the results depend on the processing

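No member passed limma's adjusted threshold under any of the 22 alternatives, and the members' median kept its sign in all of them. With 3 arrays a label, near-floor probe sets (Lmod1, Kcnmb1, Cnn1 in part) and an unknown deposited scale, small changes could not be seen, and the cause of the shifts below was not tested. Of 697 member values 43 changed sign, in 20 members; the other 12 never did.

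Over all genes limma called 1; it called 17 with each array centred on its median, 0 after quantile normalisation, 0 without the eBayes trend, 0 with the composition covariate, 0 with the replicate block, 32 with the fluidics station as a block, 10 on station 2 alone and 65 with WT 1, KO 2 and KO 3 left out, and 0 to 1 without 1 array. The replicate block left the members' median at -0.22 and changed no member's call. With the station as a block, or on station 2 alone, where WT 3 is the single WT-labelled array and is assumed to vary like the others, the median was -0.351. Members without overlap, in either direction, numbered 24 on station 2 alone, 16 with the 3 arrays left out and 6 to 16 without 1 array. Fewer arrays make separation easier by construction. Over all genes the share with every KO-labelled array below was 19.5% on station 2 alone and 21.9% with the 3 arrays left out. Without 1 array it was 4.5% to 13.6%.

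Member differences changed sign as follows. With array weights they were Synpo2 0.2202, Ppp1r14a 0.0266, Ppp1r12a 0.0093, Tpm2 0.0871 and Actg2 0.2868. With centring they were Ppp1r12a 0.0309, Kcnmb1 0.0317 and Lmod1 0.0256, and after quantile normalisation Ppp1r12a 0.0109. With the 3 arrays left out they were Pgm5 0.1119, Ppp1r12b 0.0221, Actg2 0.4753, Pdlim3 0.0641, Acta2 0.0438 and Tpm1 0.1442. As the mean of all probe sets they were Ppp1r12b 0.0739, Itga8 -0.0057 and Mylk -0.0708. By the second brightest probe set they were Itga8 -0.1058, Kcnmb1 0.0022, Des 0.0028, Myocd 0.0019, Ppp1r12b 0.3504, Mylk -0.0267, Myh11 0.0018 and Acta2 0.0102, the last also without shared probe sets. Without 1 array the ranges were Actg2 -0.6127 to 0.128, Cnn1 -0.5158 to 0.0785, Cald1 -0.1138 to 0.0311, Myl9 -0.3428 to 0.0398, Mylk -0.0313 to 0.14, Ppp1r12a -0.1376 to 0.0804, Ppp1r14a -0.1446 to 0.0834, Synpo2 -0.4062 to 0.1869, Itga8 -0.071 to 0.232 and Kcnmb1 -0.0196 to 0.0062.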
